A study of Homo sapiens with 12 samples.

Results

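What tetrac adds to cells that already receive heteronemin was read from the comparison of both compounds with heteronemin alone, which covers 6 of the 12 samples of the series, 3 in each group. Every sample was HCT-116, a long-used line of human colorectal carcinoma cells, and RNA was taken after 24 h. The first group received heteronemin and tetrac together, the second heteronemin alone, and the other two groups of the series were control cells and cells given tetrac alone. The labels name neither the doses nor a vehicle for the control cells, and they leave unsaid whether replicate samples were separate cultures. In such bulk RNA, fewer cells of a type and less RNA per cell cannot be told apart. Transcripts of 770 genes were counted with the NanoString nCounter PanCancer Progression Panel, which reads fluorescent barcodes on hybridised probes. The members were chosen by joining the authors' tables for the 2 groups by gene and taking the log2 ratio of their group means. Genes whose mean over both groups was 100 or more normalized counts lead the account, and 366 of the 770 genes reached that level. NR4A3, at a mean of 98.6, was the nearest gene below it, and JCAD, listed as KIAA1462, at 103 was the nearest above.

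Heteronemin is a sesterterpenoid from marine sponges, studied for its cytotoxicity in tumour cells. Tetrac is tetraiodothyroacetic acid, a deaminated form of thyroxine that blocks the thyroid hormone site on a cell-surface integrin built with the ITGB3 chain, through which thyroid hormone can activate ERK signalling and angiogenic gene expression. The study's title asks about signalling from the EGF receptor, a receptor tyrosine kinase that drives growth of colorectal epithelium through the RAS-ERK and PI3K-AKT routes. The panel reads transcripts only, so receptor activity was not measured.

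The values analysed here are group means without a value per sample, so no spread between samples, interval or test of the combination against heteronemin alone can be given. Each ratio below is therefore a description of 2 group means, with no replicate check. The raw depth is unknown. The only yardsticks at hand are spreads between genes: among the 27 housekeeping genes at a mean of 100 or more, the log2 ratio ran from -0.30 to 0.31, with an SD over genes of 0.146. Where a p-value appears, it is the authors' p for 1 group against control, rounded to 2 decimals. Its label does not say whether it was adjusted. It says nothing direct about the difference between the groups.

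Of the 366 genes, the laminin chain LAMB3 and the neutrophil attractant CXCL8 had a mean at least 1.5-fold higher with tetrac added, and the homeobox gene HOXB13 and the mitochondrial creatine kinase CKMT1A a mean at least 1.5-fold lower. Each direction thus held 2 genes, or 0.546% of those compared, and 0 genes in either direction reached 2-fold. At a smaller limit, a log2 ratio of 0.32 (25% higher, or 20% lower), 19 genes were higher (5.19%) and 18 were lower (4.92%). The median log2 ratio over the 366 genes was 0.06, with an SD over genes of 0.202, and 65.0% of them lay above 0. Scaling moved this balance: after centring the ratios on their median, 10 were higher and 28 lower at that limit, and after scaling both groups to the same sum, 7 and 32.

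The promoters of the 3 genes with the highest ratios, LAMB3, CXCL8 and ANGPTL4, are shown because they lead the comparison. Each sequence is the 250 bases before a transcription start in RefSeq on GRCh38.p14, printed 5′ to 3′ in the direction of the gene. Capitals mark matches to the AP-1 site TGANTCA, the TATA box TATAAA and the hypoxia core ACGTG or its reverse complement; both strands were searched. LAMB3 lies on the minus strand of chromosome 1, and the window shown is chr1:209651375-209651624, at 1 of its 3 listed starts. CXCL8 lies on the plus strand at chr4:73740319-73740568, and ANGPTL4 on the plus strand at chr19:8363905-8364154.
LAMB3: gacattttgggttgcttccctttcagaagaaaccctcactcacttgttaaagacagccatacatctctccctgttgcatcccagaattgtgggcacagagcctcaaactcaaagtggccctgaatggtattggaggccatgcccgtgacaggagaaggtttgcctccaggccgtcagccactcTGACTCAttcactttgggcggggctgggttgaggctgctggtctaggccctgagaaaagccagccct
CXCL8: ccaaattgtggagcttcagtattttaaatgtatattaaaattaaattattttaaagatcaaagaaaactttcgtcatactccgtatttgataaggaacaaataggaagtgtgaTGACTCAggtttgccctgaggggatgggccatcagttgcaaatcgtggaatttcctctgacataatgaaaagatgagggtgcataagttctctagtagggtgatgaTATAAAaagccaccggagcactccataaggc
ANGPTL4: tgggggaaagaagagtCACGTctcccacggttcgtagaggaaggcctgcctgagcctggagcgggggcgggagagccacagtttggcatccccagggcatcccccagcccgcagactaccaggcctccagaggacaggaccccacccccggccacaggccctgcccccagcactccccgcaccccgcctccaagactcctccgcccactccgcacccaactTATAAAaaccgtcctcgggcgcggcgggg

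The AP-1 match begins 67 bases before this LAMB3 start and 137 bases before that of CXCL8. The windows of the other 2 LAMB3 starts held no match to these motifs. The TATA box begins 31 bases before the CXCL8 start and 29 before that of ANGPTL4, whose hypoxia core lies 234 bases upstream. Over all 35116 promoter windows of this length, 6.573% held the AP-1 letters, 10.716% the TATA box, 18.513% the hypoxia core and 6.345% the E-box CACGTG, which contains the hypoxia core. Of the 12 genes with the highest ratios, 10 were in the table with 12 windows, and the AP-1 letters were found for 2 of them, the TATA box for 4, the hypoxia core for 2 and the E-box for 1. Of the 12 with the lowest ratios, 9 were in the table with 30 windows, and the AP-1 letters were found for 1 gene, the TATA box for 3, the hypoxia core for 5 and the E-box for 1. Counted by window, as over all promoters, the AP-1 letters were in 16.667% for the highest ratios and 6.667% for the lowest. The TATA box was in 33.333% and 16.667%, the hypoxia core in 16.667% and 23.333%, and the E-box in 8.333% and 6.667%. These counts are too small to compare, and a match is not a site shown to be used.

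LAMB3 encodes the beta chain of laminin-332, the basement membrane protein that anchors epithelial cells through hemidesmosomes. Its authors' mean was 102 in control, 86.2 with tetrac, 215.5 with heteronemin and 363 with both, so the combination was the highest of the 4 groups and 1.69-fold above heteronemin alone. LAMA3, the alpha chain of the same trimer, did not share that ratio and went from 116 to 114, a log2 ratio of -0.02. In the authors' deposited table LAMB3 had p = 0.01 for heteronemin and a p printed as 0 for the combination, both against control.

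CXCL8, which encodes interleukin-8, had the authors' means of 65.5 in control, 74.4 with tetrac, 535 with heteronemin and 892 with both. Its ratio of the combination to heteronemin alone was 1.67-fold, a log2 ratio of 0.74. Of 23 measured inflammatory genes, CXCL8 was 1 of only 3 at a mean of 100 or more; NFKB1 and IL18, the other two, had log2 ratios of -0.04 and 0.04. Of the 19 inflammatory genes below that level and not at the lowest value in both groups, 12 were lower and 0 higher by a log2 ratio of 0.32, beside 56.3% lower among all genes of such level.

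ANGPTL4, a secreted inhibitor of lipoprotein lipase that responds to hypoxia and to nuclear receptors, had means of 48.6 in control, 71.8 with tetrac, 105 with heteronemin and 155 with both. The ratio was 1.47-fold with heteronemin present, and the log2 ratio of 0.56 was the same to 2 decimals as that of tetrac alone over control. The levels differed, with a mean of 60.2 over control and tetrac and 130 over the heteronemin groups. Genes from 50 to under 75 in control and tetrac had a median log2 ratio of 0.24 without heteronemin. With it, genes from 100 to under 200 in the heteronemin groups had -0.12. The ephrin receptor EPHA2, a tyrosine kinase of epithelial cells, differed in shape: its means were 385 in control, 318 with tetrac, 384 with heteronemin and 559 with both. Only the combination stood above control for EPHA2, 1.46-fold over heteronemin alone, and its p against control was 0.09 in the authors' deposited table.

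JUN went from 119 in control and 126 with tetrac to 419 with heteronemin and 569 with both, 1.36-fold above heteronemin alone. The stress cytokine GDF15 had means of 748, 712, 1119 and 1479 in the same order, and the lysosomal protease CTSL of 294, 265, 427 and 563, each 1.32-fold above heteronemin alone. NDRG1, a gene induced by hypoxia and metal stress, had means of 721, 602, 1084 and 1388. In these 4 genes, as in LAMB3, CXCL8 and ANGPTL4, heteronemin alone lay above control and the combination higher again.

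HSP90B1 and AREG, also among the 12 highest ratios, had lower means with heteronemin alone than in control. HSP90B1, the chaperone of the endoplasmic reticulum, had means of 1080 in control and 922 with heteronemin against 1225 with both. Amphiregulin, AREG, a ligand of the EGF receptor, had 2071 in control, 1753 with heteronemin and 2315 with both. FGF2, a growth factor for endothelial and stromal cells, had 109 in control, 138 with heteronemin and 179 with both. Its mean with heteronemin alone was thus already above control, 1.26-fold in the authors' deposited table. In the authors' deposited table the p of the combination against control was 0.32 for HSP90B1 and AREG and 0.01 for FGF2.

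The remaining 7 genes above the 0.32 limit were P3H1, RTN4, SNAI1, CLU, MED23, CDH1 and CLDN7, with log2 ratios from 0.32 to 0.35. SNAI1, a repressor of E-cadherin transcription, had means of 119 in control, 275 with heteronemin and 349 with both. CDH1, which encodes E-cadherin, had 509, 374 and 471, so its mean with both compounds lay between those of heteronemin and control. P3H1, a collagen prolyl hydroxylase, had 253, 188 and 241, and the Mediator subunit MED23 had 325, 239 and 302. Of these 7, P3H1, RTN4, CLU and MED23 were named only to complete the count, after their values were seen.

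**Figure D1:**
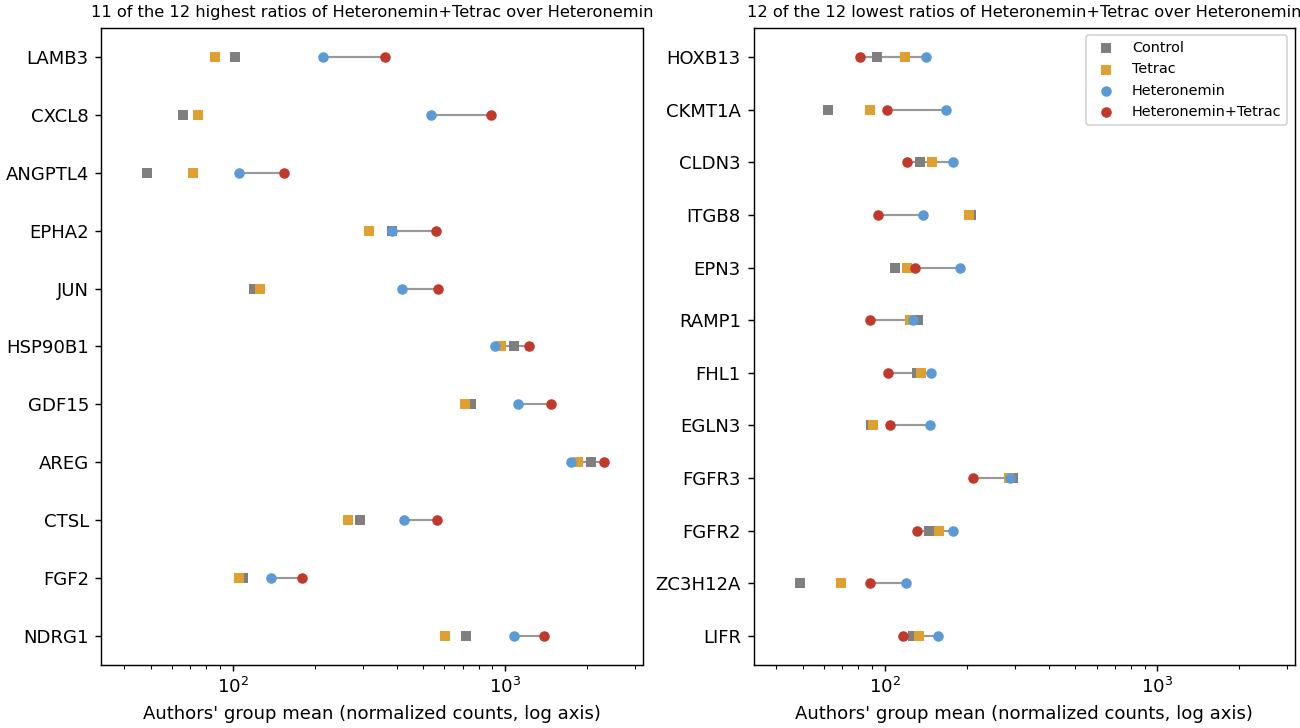
Authors' group means in normalized counts (log axis, no error bars because values per sample were not analysed here) for 11 of the 12 genes with the highest and the 12 with the lowest ratio of the combination to heteronemin alone, at a mean of 100 or more. Squares are control and tetrac, circles are heteronemin and the combination joined by a line; CXCL8 runs from 535 to 892 and HOXB13 from 142 to 81.2.

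The lowest ratios belonged to genes of modest level, with heteronemin means between 119 and 289. HOXB13, a posterior homeobox factor of colon and prostate, had means of 94.05 in control, 118 with tetrac, 142 with heteronemin and 81.2 with both, 1.75-fold lower than with heteronemin alone. CKMT1A went from 168 with heteronemin to 102 with both, 1.64-fold lower, with 62.1 in control; its near-identical copy CKMT1B makes the identity uncertain. The tight junction protein CLDN3 went from 178 to 121, with 135 in control, and the endocytic adaptor EPN3 from 189 to 129, with 109 in control. HOXB13 had p = 0.22 for heteronemin and p = 0.55 for the combination, both against control in the authors' deposited table. For CKMT1A they were 0.04 and 0.23.

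The integrin chain ITGB8, which helps to activate latent TGF-beta, was already lower with heteronemin than in control and lower again with both, at 208, 139 and 94.4. Its p against control was 0.05 for the combination in the authors' deposited table. RAMP1, a partner of the calcitonin-like receptor, and the growth factor receptor FGFR3 lay near control with heteronemin alone and lower with both: RAMP1 had 133, 127 and 88.6, and FGFR3 had 296, 289 and 212. Against control, the combination had p = 0.01 for RAMP1 and p = 0.04 for FGFR3 in the authors' deposited table.

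FGFR2 went from 178 to 132, the LIM protein FHL1 from 148 to 103, the cytokine receptor LIFR from 156 to 116, the oxygen sensor EGLN3 from 147 to 105, and the RNase ZC3H12A, which degrades cytokine transcripts, from 119 to 88.4. These 5 were 1.35-fold to 1.44-fold lower. The other 6 genes below the limit of -0.32 were CXADR, ERBB2, HPSE, BMPR1A, TJP3 and CTSK, with log2 ratios from -0.40 to -0.32; CXADR was named after its values were seen. In the authors' deposited table, the combination against control had p = 0.60 for CLDN3 and FGFR2, p = 0.59 for EPN3, p = 0.35 for FHL1 and p = 0.43 for LIFR.

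The ratio moved with expression level, and this stands beside every result here. In the 80 genes at a mean of 800 or more the median log2 ratio was 0.13, and 0 of them were lower by the 0.32 limit. From 400 to under 800 it was 0.10 (78 genes), from 200 to under 400 it was 0.06 (114 genes), and from 100 to under 200 it was -0.12 (94 genes). Below 100 it was -0.39 from 75 (47 genes), -0.48 from 50 to under 75 (145 genes) and -0.24 under 50 (149 genes), where the lowest value of 33 bounds the ratio. With genes classed by their level in the control and tetrac groups instead, the median ran from -0.36 in the 295 genes under 50 to 0.11 in the 90 genes at 800 or more. The part of this trend in the single genes was not tested. As a description, each gene was therefore also set against the median of the 51 genes of nearest level.

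**Figure D2:**
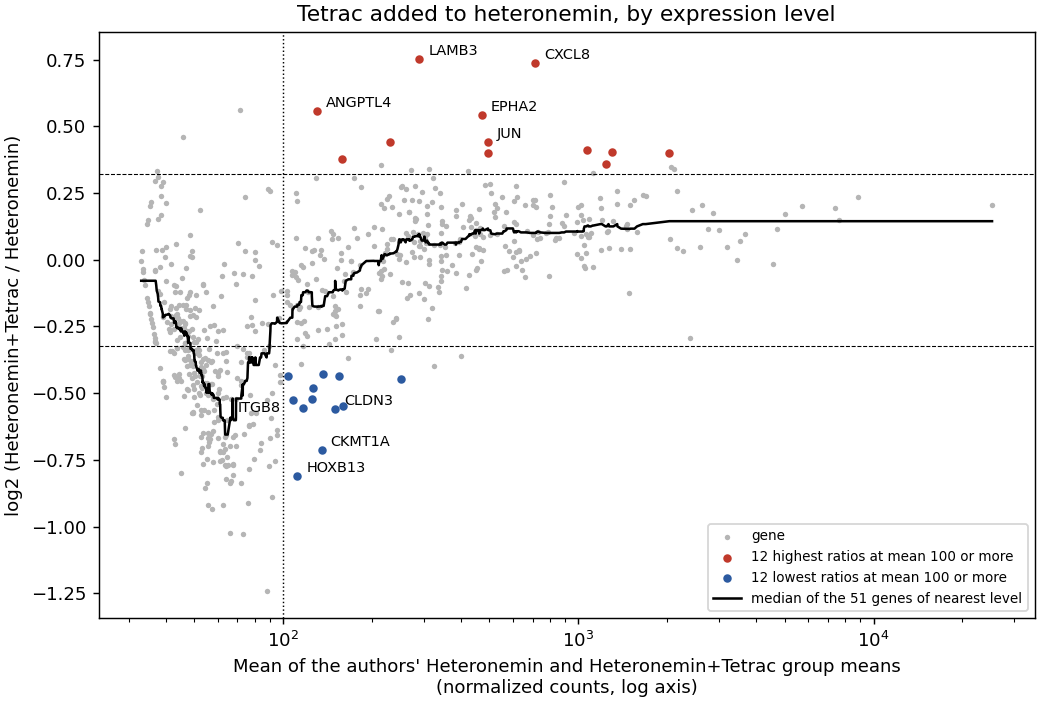
Each point is a gene; the horizontal axis is the mean of the 2 group means in normalized counts (log axis) and the vertical axis the log2 ratio of the combination to heteronemin alone. The black line, the median of the 51 genes of nearest level, lies below 0 under a mean of 100 and above 0 at the highest levels; dashed lines mark log2 ratios of 0.32 and -0.32 and the dotted line a mean of 100.

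Relative to genes of like level, ANGPTL4 stood at 0.73, LAMB3 at 0.66 and CXCL8 at 0.64, and these were the 3 genes higher by 1.5-fold (0.82%). HOXB13, at -0.64, was the 1 gene lower by that much (0.273%), while CKMT1A stood at -0.54. Past the 0.32 limit, 12 genes were higher (3.28%) and 14 lower (3.83%) after this correction, of which 8 and 12 were among those counted before it. FGF2 stood at 0.49, EPHA2 at 0.43 and JUN at 0.33. GDF15, HSP90B1, AREG, CTSL and NDRG1 stood between 0.23 and 0.29, inside the limit, as did RTN4, SNAI1, CLU, MED23, CDH1 (0.25) and CLDN7 (0.20). Among the lower genes, FGFR3 (-0.51), CLDN3 (-0.45), EPN3 (-0.44), BMPR1A (-0.43) and ITGB8 (-0.42) were among those that stayed past the limit, while EGLN3 (-0.31), HPSE (-0.29), LIFR (-0.25), ERBB2 (-0.23), ZC3H12A (-0.21) and CTSK (-0.20) came inside it.

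Below a mean of 100 the picture was one-sided. Of the 341 genes there that were above the authors' lowest value of 33 in at least 1 of the groups, 192 were lower by the 0.32 limit (56.3%), 72 by 1.5-fold (21.1%) and 3 by 2-fold, while 3 were higher by the 0.32 limit (0.88%). A further 63 genes stood at 33 in both groups and have no ratio. The transcriptional repressor RUNX1T1 went from 124 to 52.2, the tryptase TPSB2 from 97.9 to 48.0, the transcription factor MAF from 88.8 to 43.7, PIK3R6 from 75.6 to 39.6 and FGL2 from 82.1 to 43.4, all at 33 in control. TPSB2 shares most of its sequence with TPSAB1, so its identity is uncertain. In the authors' deposited table, the combination had p = 0.42 against control for TPSB2, MAF and PIK3R6, and p = 0.21 for RUNX1T1.

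The highest ratio below 100 was that of CBLC, an epithelial ubiquitin ligase of the family that marks the EGF receptor for degradation. Its means were 77.2 in control, 72.3 with tetrac, 57.9 with heteronemin and 85.5 with both, 1.48-fold above heteronemin alone, while the median of genes of like level lay below 0. Relative to those genes CBLC stood at 1.08, and PPFIBP2, which went from 38.7 to 53.1, at 0.73. EMILIN3 and ROBO4 stood at 33 with heteronemin and at 41.6 and 40.5 with both, and no fold is given so near the lowest value; CX3CL1 went from 33.7 to 41.9.

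For the question in the study's title, 18 genes of EGF receptor and RAS-ERK signalling were measured and 15 reached a mean of 100. Of these, AREG was higher and ERBB2 lower by the 0.32 limit, the other 13 lay between, and the list median was 0.10 against 0.06 over all 366 genes. After level correction both came inside the limit. Counts in this list and those that follow are to be read beside the 5.19% higher and 4.92% lower over all 366 genes, and nothing particular to a list is read from them. EGFR itself had authors' means of 502 in control, 462 with tetrac, 385 with heteronemin and 404 with both, a ratio of 1.05-fold and a distance of 0.00 from genes of like level. In the authors' deposited table its p against control was 0.04 with heteronemin and 0.01 with both. The kinase ERK1, encoded by MAPK3, had 586, 476, 340 and 343 in the same order, a log2 ratio of 0.01 on a heteronemin background against -0.30 for tetrac alone. This difference of 0.31 lay inside the 0.32 limit, and the medians of the same ratios over the 366 genes were 0.06 and -0.10.

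The receptors ERBB2 and ERBB3, which pair with the EGF receptor, were lower with both compounds than with heteronemin alone. ERBB2 had 99.9 in control, 134 with tetrac, 130 with heteronemin and 99.5 with both, 1.31-fold lower and -0.23 from genes of like level. ERBB3 had 78.2, 74.2, 99.5 and 59.4, 1.68-fold lower, but its mean of 79.4 lay under 100, where lower ratios were common, and it stood -0.35 from genes of like level. Among the ligands, EREG went from 2430 to 2803, and among the downstream genes STAT3 from 494 to 552, MAP2K1 from 431 to 491.5 and PLCG2 from 167 to 202. Their log2 ratios ran from 0.16 to 0.27, inside the limit.

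Of 11 PI3K, AKT and mTOR genes at a mean of 100 or more, 0 passed the 0.32 limit in either direction, and the median was 0.11. The regulatory subunits PIK3R2 and PIK3R1 had the lowest values, from 271 to 221 and from 164 to 138, and EIF4EBP1, the translation repressor that mTOR controls, the highest, from 612 to 704. AKT1 had a log2 ratio of 0.09.

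Adhesion and matrix genes were mostly close to heteronemin alone. Of 7 integrins at a mean of 100 or more, ITGB8 alone passed the 0.32 limit, while ITGA2, a collagen receptor chain, went from 237 to 284, with 377 in control. ITGB3, the chain of the tetrac receptor, was near the lowest value, at 33 in control, 54.3 with heteronemin and 44.5 with both. Of 7 laminin and basement membrane genes, LAMB3 alone passed, and the perlecan gene HSPG2 went from 172 to 146. Of 5 collagens 0 passed, with COL18A1 from 227 to 185, COL6A1 from 260 to 224 and COL1A1 from 144 to 133.

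Among 13 matrix proteases and inhibitors, 2 were higher, CTSL among them, and heparanase, HPSE (from 187 to 145), and the collagen-degrading cathepsin CTSK (from 130 to 104) were lower by the 0.32 limit. The sheddase ADAM17 went from 571 to 672, with 434 in control. The log2 ratios of the cathepsins were 0.40 for CTSL, 0.10 for CTSH, which was named after its values were seen, and -0.32 for CTSK, and after level correction CTSL, CTSK and HPSE came inside the limit.

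Of 16 angiogenic genes, ANGPTL4 and FGF2 were higher and the receptors FGFR2 and FGFR3 lower by the 0.32 limit, with a list median of -0.04. VEGFA, the main endothelial growth factor, went from 660 to 771, with 461 in control and a log2 ratio of 0.22, while VEGFB and PDGFC had -0.17 and -0.20. FGF2 had a log2 ratio of 0.38 and the receptors FGFR2 and FGFR3 -0.44 and -0.45, while FGFR1 and FGFR4 had 0.02 and -0.11. FGF9, a second ligand that is outside this list, went from 133 to 109. Of 16 hypoxia and glucose genes, NDRG1 was higher and EGLN3 lower, both inside the limit after level correction, and HIF1A went from 1235 to 1479, with 1582 in control. PFKFB4 and PGK1, enzymes of glycolysis, had log2 ratios of 0.22 and 0.18.

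The stress list held the highest median of the 17 lists, 0.24 over 6 of its 29 listed genes, 4 above 0 and 2 below. JUN and GDF15 were higher by the 0.32 limit and 0 were lower. The small heat shock protein HSPB1 went from 463 to 550 and the haem oxygenase HMOX1 from 207 to 242, while the endoplasmic reticulum kinase EIF2AK3 went from 193 to 171. After level correction the median of this list was 0.18, and GDF15, at 0.28, came inside the limit while JUN, at 0.33, did not.

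Of 22 epithelial and junction genes, CDH1 and CLDN7 were higher, CLDN3 and TJP3 lower by the 0.32 limit, and 18 lay between, with a median of 0.10. After level correction CDH1 and CLDN7 came inside the limit, CLDN3 and TJP3 did not, and the median was 0.00. CLDN7 went from 994 to 1244 and CLDN3 from 178 to 121. The tight junction scaffold TJP3 went from 259 to 204, with p printed as 0 for the combination against control in the authors' deposited table. Only 4 of 26 measured mesenchymal genes reached a mean of 100; SNAI1 was higher by the 0.32 limit, VCAN went from 124 to 116 and CALD1 from 653 to 636.

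Of 15 TGF-beta, BMP and ID genes, the BMP receptor BMPR1A was lower by the 0.32 limit, from 450 to 351 with 393 in control, and the list median was 0.03. The activin receptor ACVR1 went the other way, from 287 to 355, and TGFB1 went from 255 to 217. Of 9 WNT and Notch genes, 9 cell cycle genes and 12 cytoskeletal genes, 0 passed the 0.32 limit. Among them MYC went from 1964 to 2351, the adhesion receptor CD44 from 1550 to 1832 and MYCL from 118 to 105. In the cell cycle list RGCC, a regulator of cell cycle kinases, went from 158 to 127, the retinoblastoma relative RBL1 from 227 to 273 and the kinase inhibitor CDKN1A from 1093 to 1284. The focal adhesion kinases PTK2 and PTK2B had log2 ratios of 0.21 and -0.21, and ILK, an adaptor at integrin tails, had 0.25.

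**Figure D3:**
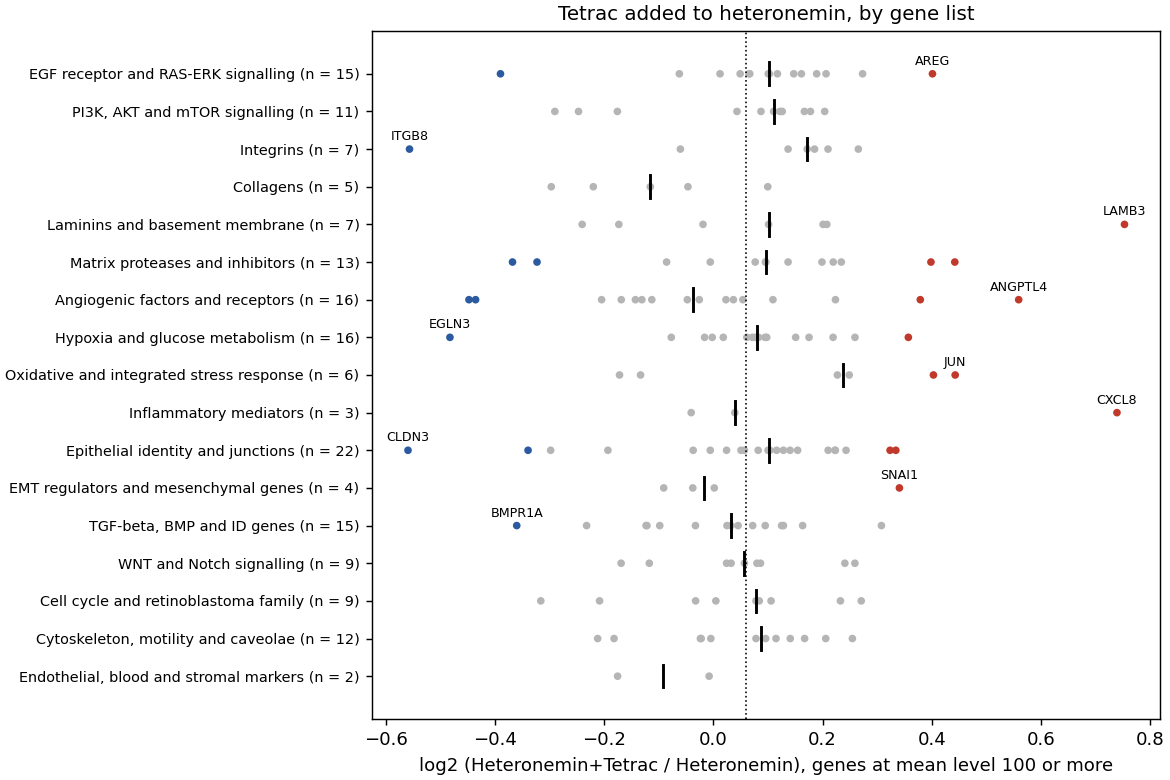
Log2 ratio of the combination to heteronemin alone for the genes of 17 lists at a mean of 100 or more (n beside each name); black bars are list medians and the dotted line is the median of 0.06 over the 366 genes. Red and blue points passed 0.32, and in most lists with such a point the gene farthest from 0 is named.

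As a check of the labelled cell type, the epithelial markers CDH1, EPCAM and KRT19 had means of 374 to 1523 with heteronemin and 471 to 1637 with both, while CEACAM5 was near the lowest value, at 50.3 and 42.1. The 6 measured markers of other cell types summed to 345 with heteronemin and 291 with both, and the highest single mean was 84.7, that of CD34. Of the 2 listed markers of other cell types at a mean of 100 or more, EGFL7 had a log2 ratio of -0.18 and CD24, which carcinoma cells also express, of -0.01.

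The last comparison asked whether tetrac added the same with and without heteronemin; the combination against heteronemin and tetrac against control share no samples. Over the 366 genes the median log2 ratio was 0.06 with heteronemin and -0.10 without it. Past the 0.32 limit, 11 genes were higher with tetrac alone (3.01%) and 0 were lower. Some of these were low in control and tetrac, and among the 356 genes at a mean of 100 over all 4 groups, 4 were higher and 0 lower. Across genes the 2 log2 ratios had Pearson's r = -0.40 and Spearman's rho = -0.39, and r = -0.14 after level correction, or -0.46 and -0.27 over the 356 genes; the genes share the libraries of each group and the dependence on level, so this is a description. The dependence on level ran opposite ways, with genes classed by their level in control and tetrac. Without heteronemin the median was 0.24 from 50 to under 75 and -0.16 at 800 or more, against -0.26 and 0.11 with heteronemin. The lowest value of 33 was held by 279 genes in control, 61 with tetrac, 70 with heteronemin and 90 with both. A log2 ratio of tetrac over a control mean of 33 cannot lie below 0. The median control mean was 33 in the class under 50 and 56.0 from 50 to under 75. The part of this bound in the correlations was not tested.

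By 1.5-fold or more, 3 genes had a higher tetrac ratio with heteronemin than without (0.82%) and 8 a lower one (2.19%). LAMB3 differed by 0.99, with log2 ratios of 0.75 with heteronemin and -0.24 without, EPHA2 by 0.82 and NDRG1 by 0.62. SLC35A3, a sugar nucleotide transporter, and HSP90B1 came next, each at 0.58. The largest lower differences were those of CKMT1A (-1.23), HOXB13 (-1.14), ZC3H12A (-0.93), ERBB2 (-0.81) and the housekeeping gene TRIM39 (-0.76). Over control and tetrac, CKMT1A, ZC3H12A and TRIM39 had means of only 75.4, 58.9 and 83.0, while HOXB13 and ERBB2 stood above 100. Genes of that level had median tetrac ratios without heteronemin of 0.24 (50 to under 75) and 0.09 (75 to under 100). Genes from 100 to under 200 in the heteronemin groups had -0.12 with it. The part of level in these differences was not tested. TRIM39 had means of 65.9 in control, 100.2 with tetrac, 109 with heteronemin and 97.3 with both. By 0.32 or more, 82 genes (22.4%) had a higher and 36 (9.84%) a lower tetrac ratio with heteronemin. The medians of the 2 ratios differed, 0.06 with heteronemin and -0.10 without it. The counts of differences were not centred, so their balance includes that shift. These differences rest on 4 group means each and were not tested.

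**Figure D4:**
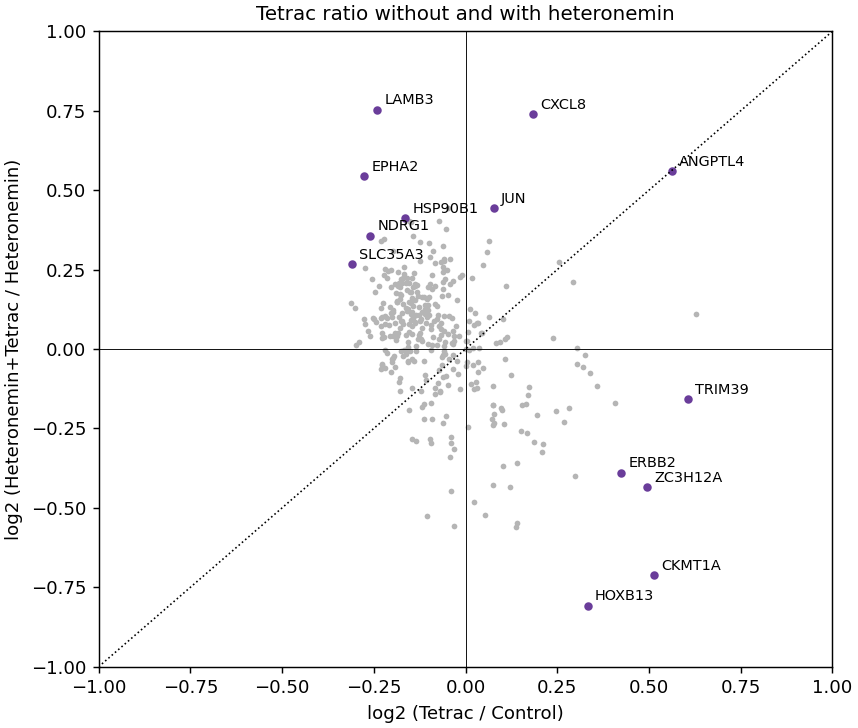
Log2 ratio of tetrac over control (horizontal) against the log2 ratio of the combination over heteronemin (vertical) for the 366 genes at a mean of 100 or more; the dotted line marks equal ratios. ANGPTL4 lies on the line, LAMB3, EPHA2 and NDRG1 far above it, and CKMT1A and HOXB13 far below.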

How the data were processed

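RNA of 12 HCT-116 samples was counted with NanoString nCounter. Per the series' design text, raw counts were normalized in nSolver 4.0 with a positive control factor per sample and a biological normalization. The authors deposited 3 tables, 1 per treatment against control. In each, the deposited signal is 1 mean per treatment group, in normalized counts, for 770 genes; the lowest value is 33, and the same control column stands in all 3. The authors deposited a signed fold change as a score, which matched the quotient of the means within 0.00511, and a p-value rounded to 2 decimals, so that a p printed as 0 stands for any below 0.005. Not given in the sources used here: the kind of mean, the background threshold and the test.

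The planned test for values per sample could not be run on group means, so log2 ratios without pseudocount and counts at log2 ratios of 0.32 and at 1.5-fold describe the comparison. For level correction, each gene's ratio was reduced by the median ratio of 51 genes of similar mean. The text names the 12 highest and 12 lowest ratios at a mean of 100 or more, up to 3 further members of each of 17 lists, 5 genes for the title's question, the 5 largest differences from tetrac alone per direction, and the 5 highest and 5 lowest ratios below 100. Some genes that the rule names are not reported here. Other genes named are said to be so or are relatives of these. The members and lists were chosen with earlier results of these data known. Of 600 listed genes, 311 were measured. Symbols are those of the tables; 755 are current and 15 older. The counting was checked on simulated tables. Computations used Python 3.11.15, numpy 2.4.6, pandas 2.3.3 and matplotlib 3.10.9.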

Additional observations from a re-analysis of the deposited data

How the results depend on the processing

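Of the 2 genes higher and 2 lower by 1.5-fold at a mean of 100 or more, the lower count depended on the level filter: it was 74 with no filter, 70 at a mean of 50 or more, 71 with both groups above the lowest value and 0 at 200 or more, while the higher count stayed at 2. With the level set by control and tetrac, a choice made after seeing the data, the counts were 0 higher and 1 lower. Centring on the median of these genes gave 5 lower, scaling to the same sum 7, a pseudocount of 33 gave 1, and level correction, also added later, 1. A limit of 0.32 (log2) gave 19 higher and 18 lower, and 2-fold gave 0 and 0. At 0.32, the 18 lower genes became 210 with no filter, 163 at 50 or more, 201 with both groups above the lowest value, 4 at 200 or more, 28 when centred on the median and 32 when scaled to the same sum. The 19 higher genes became 10, 7 and 12 with median centring, sum scaling and level correction. A pseudocount of 10, centring on the housekeeping genes and the authors' signed folds kept these counts within 1.5 times. Neither that centring nor the signed folds could change much. The geometric means of the housekeeping genes were already 297.5 with both compounds and 296.1 with heteronemin alone. The signed folds are the same quotients of means, rounded. Of the 90 genes named by rule, 41 were past 0.32. After level correction none of these changed sign, and 26 of 41 stayed past the limit. The scalings and pseudocounts could not have reversed a sign among them. A pseudocount keeps the sign of every ratio, and each scaling shifts all genes by a constant smaller than 0.32. The 8 and 3 genes that differed from tetrac alone were 6 and 3 at a mean of 100 over all 4 groups. No paired analysis was possible because the tables hold group means, and leaving out a replicate could not be run for the same reason.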
